A study of Mus musculus with 2 samples.

Results

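The genes examined here set the brakes and the accelerator of cell-cycle entry. They are 6 cyclin-dependent kinase (CDK) inhibitor genes (*Cdkn1a*, *Cdkn1b*, *Cdkn2a*, *Cdkn2b*, *Cdkn2c* and *Cdkn2d*), the 3 D cyclin genes (*Ccnd1*, *Ccnd2* and *Ccnd3*) and *Trp53*, which encodes p53. They were taken by gene symbol, and all 10 were present among the 23628 genes listed. Both libraries come from the same condition. They are *Sox9*-GFPhi chondrospheres, colonies grown in methylcellulose at low oxygen, and are named replicate 1 and replicate 2. The founding cells were sorted for high GFP from femoral heads at postnatal day 7. The pups were homozygous for a *Sox9* IRES-EGFP allele, in which GFP is made from the *Sox9* transcript, and cells with endothelial, erythrocyte or leukocyte surface markers had been removed in the sort. The medium held serum, FGF2, BMP4, IGF1, LIF and TGF-β1. The paper describes each pup as harvested on its own as a biological replicate, but the labels do not name the pups behind the libraries. No untreated or freshly isolated library was analysed here, so the values are levels and their spread between 2 libraries, with no test between groups.

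D cyclins are made when growth factors reach a cell. They bind CDK4 or CDK6, and the pair phosphorylates the retinoblastoma protein, which releases E2F factors and starts DNA synthesis. INK4 proteins, encoded by the *Cdkn2* genes, bind CDK4 and CDK6 and keep the D cyclins away, whereas the Cip/Kip proteins p21 (*Cdkn1a*) and p27 (*Cdkn1b*) act on complexes of CDK2 with cyclins E and A. In growth plate cartilage, cyclin D1 is known as a driver of chondrocyte division, and p57 (*Cdkn1c*), the remaining Cip/Kip protein, as a brake that goes with cell-cycle exit and hypertrophy. The products of *Cdkn2a* and *Cdkn1a* are in wide use as marks of senescence.

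*Cdkn2a* is the gene whose sequence most limits how its level can be read, because it encodes 2 unrelated proteins. Each transcript of GENCODE M21 starts in its own first exon, and both then enter the same second exon, from 89276645 to 89276985 on chromosome 4 of GRCm38 (minus strand). The first exon of the p19ARF transcript lies from 89294334 to 89294653 and holds 190 coding bases. That of the p16INK4a transcript lies from 89281986 to 89282192 and holds 126. The coding bases of each first exon are shown in lower case, followed in capitals by the first 30 bases of the shared exon.
p19ARF transcript: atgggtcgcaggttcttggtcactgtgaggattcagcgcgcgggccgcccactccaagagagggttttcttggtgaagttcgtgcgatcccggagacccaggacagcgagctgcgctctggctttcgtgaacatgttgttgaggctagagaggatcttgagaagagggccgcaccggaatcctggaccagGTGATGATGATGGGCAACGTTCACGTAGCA
p16INK4a transcript: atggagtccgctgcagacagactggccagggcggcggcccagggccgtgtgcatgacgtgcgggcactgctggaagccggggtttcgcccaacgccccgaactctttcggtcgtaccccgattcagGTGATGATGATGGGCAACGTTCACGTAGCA
The capitals are the same in both, but the p16INK4a transcript reads them from their first base and the p19ARF transcript completes a codon with the first 2 bases before it goes on, so the proteins differ. The transcripts share 575 exonic bases, against 320 found only in the p19ARF transcript and 277 only in the p16INK4a transcript. The deposited values are per gene, so every *Cdkn2a* level below is the sum of both products.

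Promoter windows of RefSeq on GRCm38.p6, from 250 bases before to 50 after a transcript start, were found for 8 of the 10 genes, in 12 windows. *Ccnd1* and *Ccnd2* had none. The windows were searched on both strands for the p53 consensus element with at most 1 mismatch and no spacer, for TGACGTCA (the cyclic AMP response element), for TTTNNCGC (an E2F site) and for GGGCGG (a GC box); the E2F and GC box letters can overlap. The p53 element was found in 0.0883% of the 32851 windows of all genes and in 1 of the 12, that of the upstream start of *Cdkn1a*, the p53 target whose product stops the cycle after DNA damage. TGACGTCA was in 1.79% of all windows and in that of *Cdkn2b* alone among the 12. TTTNNCGC was in 5.17% of all windows and in both windows of *Cdkn2a*, whereas GGGCGG was in 35.7% of all windows and in 9 of the 12. The 250 bases before these starts of *Cdkn1a* and *Cdkn2b* are shown with the p53 element and TGACGTCA in capitals.
*Cdkn1a*, chr17:29090729-29090978, plus strand: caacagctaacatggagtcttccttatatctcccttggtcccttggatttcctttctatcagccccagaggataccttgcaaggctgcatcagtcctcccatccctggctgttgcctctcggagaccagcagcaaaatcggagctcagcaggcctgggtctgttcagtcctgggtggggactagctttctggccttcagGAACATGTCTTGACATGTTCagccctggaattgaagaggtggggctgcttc
*Cdkn2b*, chr4:89311033-89311282, minus strand: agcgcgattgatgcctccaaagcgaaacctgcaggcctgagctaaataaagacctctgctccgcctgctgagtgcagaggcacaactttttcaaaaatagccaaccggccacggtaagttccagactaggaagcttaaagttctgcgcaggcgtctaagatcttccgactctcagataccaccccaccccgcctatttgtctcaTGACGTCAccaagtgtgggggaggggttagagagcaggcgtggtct
The p53 element of *Cdkn1a* spans 20 bases from 29090928 to 29090947 and ends 2822 bases before the downstream start at 29093769. A match of letters is a description of the sequence and not evidence that a factor was bound in these cells.

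Levels are given as CPM, the reads of a gene scaled to a fixed total per library. The steps between low values imply that 10 CPM rest on 433 reads in replicate 1 and on 422 in replicate 2, and that 3 reads, taken as the smallest level the depth can show, equal 0.0693 and 0.0712 CPM. Replicate 2 was compared with replicate 1 over the 12631 of 23628 genes whose mean reached 1 CPM. Their median log2 ratio was 0.30, and differences between the libraries are given relative to it ("centred"). The SD of the centred log2 ratio across genes was 0.83. Of the chondrocyte markers, all 9 were above 1 CPM (means 265 to 124817 CPM), and they summed to 185285 and 128965 CPM in replicates 1 and 2. A centred log2 ratio below 0 was seen in 8 of the 9, whereas 50.0% of all genes were above 0. Of the 9, 2 were more than 2-fold lower in replicate 2, against 6.06% of all genes. These were *Matn1* at 902 and 29.2 CPM (centred log2 ratio -5.25) and *Col9a1* at 1881 and 1087 CPM (-1.09), and *Sox9* was at 252 and 279 CPM. Endothelial markers summed to 0.231 and 0.166 CPM, with 3 of the 4 at 0 in both libraries, erythroid markers to 0.0924 and 0.0949 CPM, and leukocyte markers to 3.26 and 3.50 CPM, most of it *Cd68*, with *Ptprc* at or below 0.0474 CPM. Fibroblast markers (4 genes) summed to 1497 and 741 CPM, nearly all of it *Dcn* at 879 and 267 CPM (centred log2 ratio -2.02) and *Col3a1* at 616 and 471 CPM (-0.69), with *Pdgfra* at 2.03 and 2.71 CPM and *Thy1* at 0.208 and 0 CPM. Osteoblast markers (4 genes) summed to 2.62 and 49.4 CPM, of which *Dmp1* gave 0.116 and 40.4 CPM. The part of these cell type markers in the differences below was not tested, and in bulk RNA fewer cells of a type cannot be told apart from less RNA per cell.

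All 10 genes were above 1 CPM in both libraries. Of all 23628 genes, 12305 reached 1 CPM in replicate 1 and 12689 in replicate 2. The means of the D cyclins reached from 90.1 to 499 CPM. *Ccnd2* (ENSMUSG00000000184.12, chromosome 6 from 127125162 to 127152193), the D cyclin that many cell types switch on with growth factors, was measured at 431 and 568 CPM in replicates 1 and 2. Its mean was 499 ± 97.1 CPM (SD, n = 2), which ranked 145 among all genes. *Ccnd1* (chromosome 7 from 144929931 to 144939925) was measured at 54.2 and 207 CPM, a mean of 131 ± 108 CPM (SD, n = 2). *Ccnd3* (chromosome 17 from 47505051 to 47599691) was measured at 79.1 and 101 CPM, a mean of 90.1 ± 15.5 CPM (SD, n = 2). *Ccnd2* was the highest D cyclin in both libraries, also per kilobase of exon. *Ccnd1* had fewer CPM than *Ccnd3* in replicate 1 and more in replicate 2, but per kilobase of exon it was higher in both, 1.28-fold and 3.82-fold, and with the longest coding transcript as length it was again lower in replicate 1 and higher in replicate 2. *Ccnd1* overlaps LTO1 on the other strand by 1771 bases, and *Ccnd3* overlaps *Bysl* by 361. LTO1 was at 8.77 and 12.1 CPM and *Bysl* at 28.7 and 35.3 CPM, and whether the counting used strand is not given in the sources used here. The processed pseudogene *Ccnd3-ps* held 0.0367 and 0.130 CPM.

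*Cdkn1a* was the highest of the 6 inhibitor genes in both libraries, in CPM and per kilobase of exon. The gene (ENSMUSG00000023067.14, chromosome 17 from 29090976 to 29100727) was measured at 133 and 217 CPM, a mean of 175 ± 59.2 CPM (SD, n = 2). *Cdkn1b* (chromosome 6 from 134920401 to 134925513), whose product p27 holds resting cells out of the cycle, was measured at 20.1 and 19.1 CPM, a mean of 19.6 ± 0.692 CPM (SD, n = 2). *Cdkn1b* was the only one of the 10 genes with no higher CPM in replicate 2, and the 95% counting intervals of its levels, 18.8 to 21.5 CPM and 17.8 to 20.5 CPM, overlapped. Such intervals were computed from the implied reads and cover counting error only. Within a library, *Cdkn1a* exceeded *Cdkn1b* per kilobase of exon by a log2 ratio of 3.08 in replicate 1 and 3.86 in replicate 2, 8.48-fold and 14.5-fold, a mean of 3.47 against an SD of 0.55. *Cdkn1c*, which is not among the 10 genes, was measured at 4.27 and 2.24 CPM, 2.11-fold and 3.83-fold lower than *Cdkn1b* per kilobase of exon, and had a centred log2 ratio of -1.21, more than 2-fold lower in replicate 2.

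The INK4 genes were lower than *Cdkn1a* per kilobase of exon, and all 4 were detected in both libraries. *Cdkn2a* (chromosome 4 from 89274471 to 89294653) was measured at 31.5 and 46.0 CPM, a mean of 38.8 ± 10.3 CPM (SD, n = 2). *Cdkn2b* (p15), an inhibitor that TGF-β is known to induce, lies 11645 bases from it on the same strand, from 89306299 to 89311039, and was measured at 18.3 and 27.05 CPM, a mean of 22.7 ± 6.20 CPM (SD, n = 2). These neighbouring genes were the higher pair of the family, in CPM and per kilobase of exon. *Cdkn2c* (p18, chromosome 4 from 109660876 to 109667189) was measured at 8.66 and 13.2 CPM. *Cdkn2d* (p19INK4d, not to be taken for p19ARF; chromosome 9 from 21288410 to 21291407) had the lowest mean of all 10 genes, with 3.77 CPM (95% counting interval 3.21 to 4.39) in replicate 1 and 6.69 CPM (5.93 to 7.52) in replicate 2.

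*Trp53* (ENSMUSG00000059552.13, chromosome 11 from 69580359 to 69591873) was measured at 30.7 and 43.7 CPM, a mean of 37.2 ± 9.17 CPM (SD, n = 2). Per kilobase of exon it was below *Cdkn2a* in both libraries. p53 is regulated mainly through the stability of the protein, so this is a level of RNA alone. Its processed pseudogene *Trp53-ps* held 0.307 and 0.222 CPM.

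**Figure D1:**
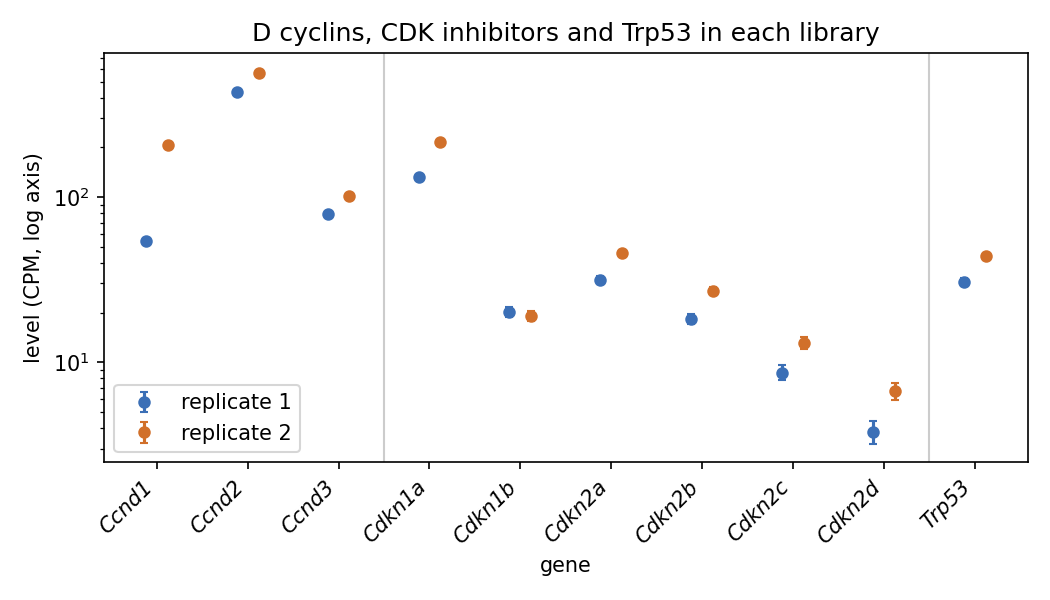
Level of each of the 10 genes in CPM (log axis) in replicate 1 and replicate 2 of the *Sox9*-GFPhi chondrospheres, 1 point per library; bars are 95% counting intervals, mostly smaller than the points. *Ccnd2* has the most CPM in both libraries, 431 and 568, *Cdkn2d* lowest, and the points of *Ccnd1* lie farthest apart, at 54.2 and 207 CPM.

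Different genes can be compared only after division by length, since a longer transcript gives more fragments. Per kilobase of exon, *Ccnd2* was at 45.8 and 60.4 CPM per kb and *Cdkn1a* at 37.4 and 61.0 CPM per kb, and these 2 genes did not differ beyond their spread (log2 ratio 0.14 ± 0.22, SD, n = 2). *Cdkn2a* followed at 26.9 and 39.3 CPM per kb and *Ccnd1* at 11.5 and 44.0 CPM per kb, and *Ccnd1* could not be told from *Cdkn2a* above it or from *Cdkn2b* below it, which was at 13.1 and 19.5 CPM per kb. Then came *Ccnd3* (mean 10.3 CPM per kb), *Trp53* (9.20), *Cdkn1b* (4.31), *Cdkn2c* (4.06) and *Cdkn2d* (3.32), of which *Cdkn1b* and *Cdkn2c* did not differ beyond their spread. The exons of *Ccnd3*, with 16 annotated coding transcripts, cover 8775 bases, but its longest coding transcript has 2113. Divided by that transcript, *Ccnd3* was at 37.4 and 47.8 CPM per kb and moved from the sixth place to the fourth, *Trp53* passed *Cdkn2b*, *Cdkn1a* passed *Ccnd2* and *Cdkn2c* passed *Cdkn1b*, so these places depend on the length used.

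The make-up of the INK4 family was almost the same in both libraries, and that of the D cyclins was not. Per kilobase of exon, *Cdkn2a* made up 58.9% of the INK4 sum in replicate 1 and 57.9% in replicate 2, *Cdkn2b* 28.8% and 28.7%, *Cdkn2c* 7.07% and 7.22%, and *Cdkn2d* 5.24% and 6.26%. The *Cdkn2a* level includes the p19ARF transcript, so the share of RNA for INK4 proteins alone is not known. The INK4 sum itself was 45.7 CPM per kb in replicate 1 and 67.9 CPM per kb in replicate 2, with the 4 genes in nearly constant proportion. The median of all genes was also higher in replicate 2. Relative to it the 4 genes had log2 ratios of 0.24 to 0.51, within 1 SD (0.83) of all genes. *Cdkn2a* exceeded its neighbour *Cdkn2b* 2.05-fold and 2.02-fold, and it exceeded *Cdkn2c* 8.34-fold and 8.01-fold, or by 3.64-fold and 3.50-fold in CPM without division by length. Among the D cyclins, *Ccnd1* made up 17.4% of the sum in replicate 1 and 38.0% in replicate 2, *Ccnd2* 69.0% and 52.1%, and *Ccnd3* 13.6% and 9.93%. *Ccnd2* exceeded *Ccnd1* 3.98-fold in replicate 1 and 1.37-fold in replicate 2, and the log2 ratio of *Ccnd1* to *Ccnd2* averaged -1.22 ± 1.09 (SD, n = 2).

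Whether drivers or brakes were higher in sum depended on the length used. The 3 D cyclin genes summed to 66.3 CPM per kb in replicate 1 and 116 CPM per kb in replicate 2, and the 6 inhibitor genes to 87.5 and 133 CPM per kb. The inhibitor sum counts the whole *Cdkn2a* level, with its p19ARF part, which cannot be taken out. The log2 ratio of D cyclins to inhibitors was -0.40 in replicate 1 and -0.20 in replicate 2, a mean of -0.30 ± 0.14 (SD, n = 2). It was -0.03 and 0.03 after division by the longest coding transcript, and 1.39 and 1.41 in CPM without division by length, so the sign of this ratio changed with the choice of length. *Cdkn1a* made up 42.8% and 45.8% of the inhibitor sum per kilobase of exon and *Cdkn2a* 30.7% and 29.5%. *Ccnd1* was lower than *Cdkn1a* in both libraries, 3.25-fold in replicate 1 and 1.39-fold in replicate 2, and their log2 ratio averaged -1.09 ± 0.87 (SD, n = 2).

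**Figure D2:**
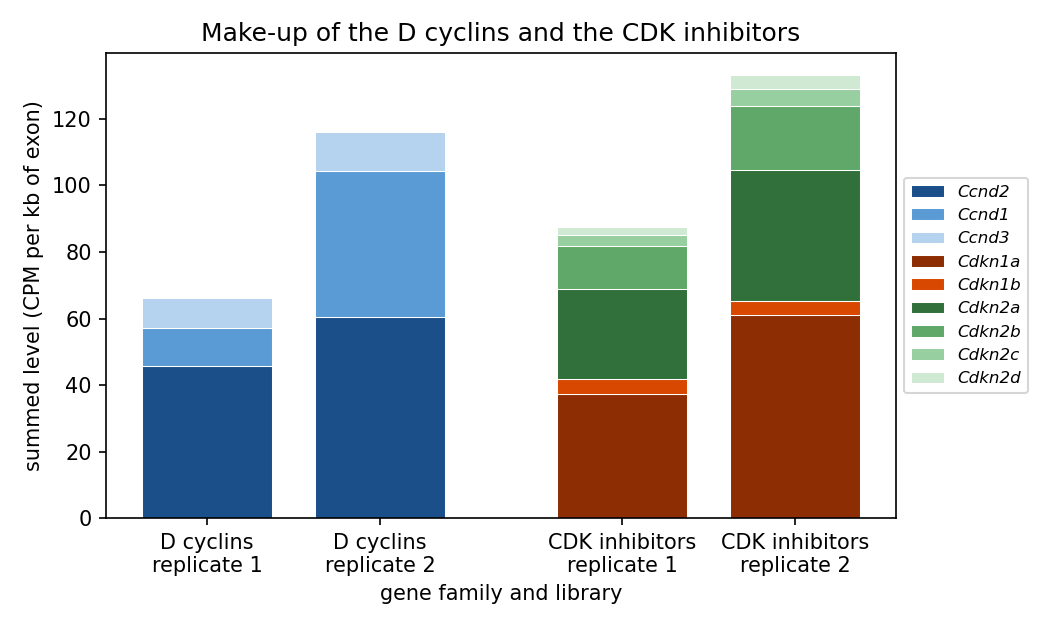
Summed level in CPM per kilobase of exon of the 3 D cyclin genes (left pair of bars) and the 6 CDK inhibitor genes (right pair) in replicate 1 and replicate 2, divided by gene. The *Ccnd1* part grows from 17.4% to 38.0% of the D cyclin bar between the libraries, while the parts of *Cdkn2a* and *Cdkn2b* in the inhibitor bar keep their proportion.

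Relative to the median of all genes, *Ccnd1* was the only one of the 10 genes more than 2-fold apart between the libraries, 1 of 10 against 13.5% of the 12631 genes, which is near the background. Its CPM was 3.82-fold higher in replicate 2 and its centred log2 ratio was 1.63, or 3.09-fold, against a counting error of 0.03, and 5.91% of genes had a larger difference. Genes more than 2-fold higher in replicate 2 made up 7.43% of all and genes more than 2-fold lower 6.06%. The other 9 genes had centred log2 ratios from -0.38 (*Cdkn1b*) to 0.51 (*Cdkn2d*), all within 1 SD of the genes as a whole. *Cdkn1a* was at 0.40, *Cdkn2c* at 0.29, *Cdkn2b* at 0.26, *Cdkn2a* at 0.24 and *Trp53* at 0.20, while *Ccnd2* and *Ccnd3* were at 0.09 and 0.05. In all, 9 of the 10 had a centred log2 ratio above 0, with a median of 0.25, against 50.0% of the 12631 genes, a share set by the centring. The same number did so with scaling by the trimmed mean ratio or upper quartile. Those shifts, 0.28 and 0.34, lie close to the median of 0.30, so they could change this count little.

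**Figure D3:**
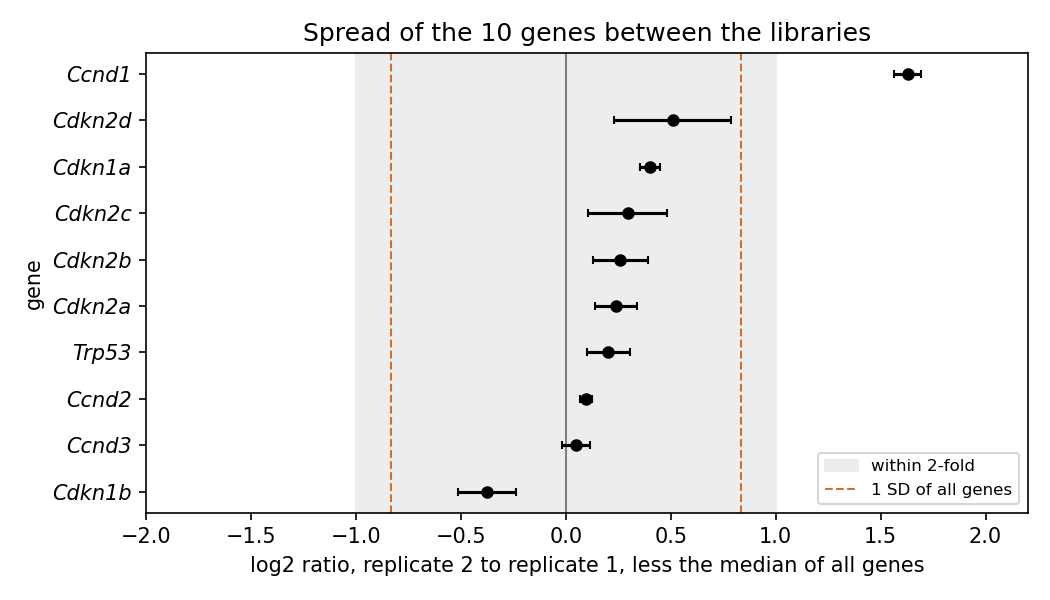
Centred log2 ratio of replicate 2 to replicate 1 for the 10 genes, with 95% counting intervals as bars; the grey band marks differences within 2-fold and the dashed lines 1 SD (0.83) of the 12631 genes. *Ccnd1* lies outside at 1.63, and the other 9 genes lie between -0.38 and 0.51.

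The genes that act with or on these 10 were followed as lists that leave the 10 out. Their counts stand against 7.43% of all genes more than 2-fold higher and 6.06% more than 2-fold lower in replicate 2, and in a short list a single gene exceeds such a share. Among 9 genes for G1 kinases and E cyclins, *Cdk4* had the most CPM, 85.9 and 123, and exceeded *Cdk6* (30.6 and 52.1 CPM) 12.1-fold and 10.2-fold per kilobase of exon. *Ccne2*, an E cyclin that E2F factors are known to induce, was the one gene of this list past 2-fold, higher in replicate 2 with 2.82 and 9.06 CPM, and *Mnat1*, a subunit of the CDK-activating kinase, had the lowest ratio at -0.14. In the RB and E2F families, 2 of the 12 genes whose mean reached 1 CPM were more than 2-fold higher in replicate 2 (7.43% of all genes) and none lower (6.06%), with a median centred log2 ratio of 0.60. These were the repressor genes *E2f8* (1.20 and 8.16 CPM) and *E2f7* (0.601 and 2.82 CPM; named after its values were seen). *Rb1* itself was at 5.92 and 7.24 CPM, *Tfdp1*, an E2F partner, had the most CPM (mean 59.9), *Rbl2* had the lowest ratio at -0.09, and *E2f2* stayed under 1 CPM at 0.716 and 0.925. Of 7 genes for the turnover of p27 and D cyclins, *Fbxo31*, which marks cyclin D1 for breakdown, was more than 2-fold lower in replicate 2 at 61.9 and 35.1 CPM (centred log2 ratio -1.12). *Cks1b*, which helps SKP2 to bind p27, had the highest ratio at 0.97, just within 2-fold, and *Gsk3b* the most CPM (mean 64.6).

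Genes of cycling cells were the list that stood farthest apart between the libraries. All 19 had a centred log2 ratio above 0, 17 of the 19 were more than 2-fold higher in replicate 2, against 7.43% of all genes, and the median was 1.72. *Mki67*, the gene of the proliferation marker Ki-67, was at 8.13 and 50.8 CPM. *Bub1*, of the mitotic checkpoint, had the largest ratio at 2.47 with 0.947 and 7.07 CPM. *Mcm6*, of the replicative helicase, had the highest mean, with 18.6 and 75.9 CPM, although *Pcna* was higher in replicate 1 at 26.0 CPM. *Pcna* (0.75) and *Mcm3* (0.90) were within 2-fold. The library with more *Ccnd1* was thus also the one with more RNA of S phase and mitosis genes. The inhibitor genes went both ways in it. *Cdkn1a* and the 4 INK4 genes had centred log2 ratios above 0, whereas *Cdkn1b* (-0.38) and *Cdkn1c* (-1.21) were below 0. With 2 libraries, no relation between *Ccnd1* and these genes can be tested.

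Mitogen-response genes, among which are inducers of *Ccnd1*, went both ways. Of the 12 whose mean reached 1 CPM, 5 were more than 2-fold higher and 3 more than 2-fold lower in replicate 2, against 7.43% and 6.06% of all genes. Those higher were *Fosl1* (0.722 and 20.5 CPM), *Etv4* (0.162 and 3.37), *Spry4* (0.855 and 9.94), *Etv5* (7.09 and 65.1) and *Dusp6* (3.51 and 27.2), the last 4 known as targets or feedback inhibitors of FGF and ERK signalling. Those lower were the immediate early genes *Fos* (54.3 and 5.60 CPM), *Jun* (62.1 and 20.1) and *Egr1* (112 and 45.7). Besides *Fosl1*, *Fos* and *Egr1*, these genes were named after their values were seen. *Myc* was at 15.2 and 34.3 CPM, within 2-fold after centring, and *Mycn* was listed at 0 in both libraries.

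**Figure D4:**
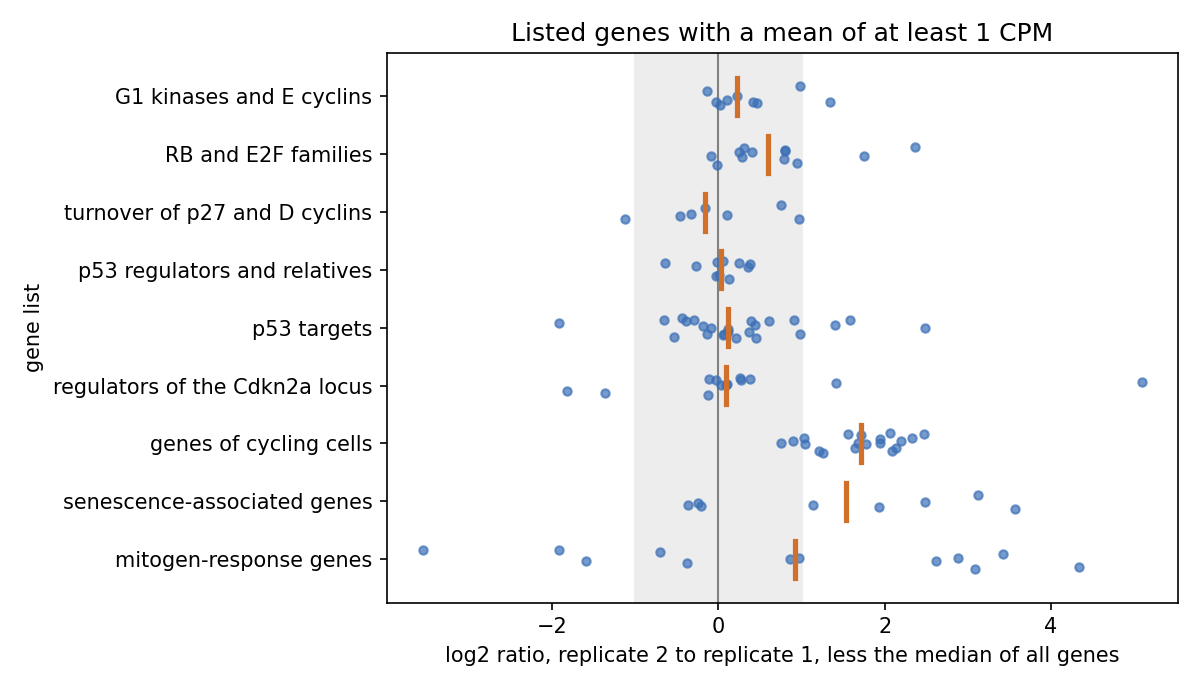
Centred log2 ratio of replicate 2 to replicate 1 for the listed genes whose mean reached 1 CPM, 1 point per gene and 1 row per list, with the median of each list as a vertical bar and differences within 2-fold in grey. Genes of cycling cells lie to the right as a group with a median of 1.72, p53 targets centre on 0.11, and mitogen-response genes split to both sides.

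The p53 targets were near the background of all genes in how often they differed. The 24 p53 targets had a median of 28.9 CPM, and all had a mean of at least 1 CPM, as did 12631 of the 23628 genes. Of these 24, 3 were more than 2-fold higher and 1 more than 2-fold lower in replicate 2. Their median centred log2 ratio was 0.11. These 4 of 24 stand against 13.5% of all genes past 2-fold in either direction, so the count says nothing particular about p53 targets. *Mdm2*, the target that also brings about the breakdown of p53, was at 122 and 158 CPM, and exceeded *Trp53* per kilobase of exon 3.16-fold and 2.88-fold. *Ccng1*, another p53 target, had the most CPM, 153 and 286. The 3 higher genes were *Perp* (0.370 and 3.16 CPM), *Pmaip1*, which encodes NOXA (3.60 and 13.5 CPM), and *Plk2* (4.18 and 13.9 CPM), and the lower one was the death receptor gene *Fas* (14.5 and 4.67 CPM). *Pmaip1* and *Plk2* were named after their values were seen. None of the 10 p53 regulators and relatives whose mean reached 1 CPM was past 2-fold. *Usp7*, a deubiquitinase of MDM2 and p53, had the most CPM (mean 73.5), and the ratios ran from -0.64 for *Ppm1d*, a phosphatase that damps p53, to 0.38 for the checkpoint kinase gene *Chek2*. The relative *Trp63* was at 0 and 0.0237 CPM, below the level of 3 reads, and *Trp73* was not analysed here.

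Regulators of the *Cdkn2a* locus were present from both sides, Polycomb repressors and activators, and had a median centred log2 ratio of 0.09 over the 13 genes whose mean reached 1 CPM. Of these, 2 were more than 2-fold higher and 2 more than 2-fold lower in replicate 2, against 7.43% and 6.06% of all genes. The repressor gene *Tbx3* differed most of all listed genes outside the cell type markers, at 0.139 and 9.94 CPM, and its relative *Tbx2* stayed low at 0.277 and 1.45 CPM. *Ezh2*, of Polycomb complex 2 and itself an E2F target, was the other gene more than 2-fold higher, at 3.997 and 13.3 CPM. *Cbx7*, of Polycomb complex 1, was more than 2-fold lower at 6.19 and 2.09 CPM. So was *Ets2*, an activator of p16INK4a, at 77.6 and 37.0 CPM. Its mean was the highest of the list, but its level in replicate 2 was not. *Ezh2* was named after its values were seen. *Bmi1*, the Polycomb gene best known for silencing *Cdkn2a*, was at 44.1 and 50.0 CPM, named for that role alone.

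Senescence-associated genes were followed as a list of 14. Of these, 6 were under 1 CPM by mean, and these were the cytokine genes *Il6*, *Il1a*, *Il1b*, *Cxcl1*, *Cxcl2* and *Ccl2*, with at most 0.214 CPM in either library. Among the 8 others, 5 were more than 2-fold higher in replicate 2 and none lower, against 7.43% and 6.06% of all genes. Among the higher genes, *Plaur* was at 4.25 and 63.8 CPM, *Igfbp3* at 1.20 and 13.9 CPM and *Mmp3* at 1.09 and 8.13 CPM. Another was *Lmnb1*, the lamin B1 gene known to be lost in senescent cells and high in dividing ones, at 1.59 and 7.90 CPM. *Gdf15* (23.1 and 22.2 CPM) had the lowest ratio at -0.37, and *Glb1*, the gene of senescence-associated β-galactosidase, was at 48.5 and 50.4 CPM. The cytokine genes, *Igfbp3*, *Mmp3*, *Lmnb1* and *Glb1* were named after their values were seen. *Cdkn1a* and *Cdkn2a* were thus expressed in both libraries, and the 6 cytokine genes of this list were at or near 0 in both. Other genes of the list, such as *Plaur*, *Igfbp3* and *Mmp3*, were above 1 CPM in both and more than 2-fold higher in replicate 2. Whether any of the cells were senescent was not tested.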

How the data were processed

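RNA-sequencing of 2 libraries of 1 group was examined, mapped to replicates by their titles. The authors aligned single-end reads to GRCm38 (mm10) with GENCODE M25 by STAR 2.7.3a, assigned them to genes with Partek E/M in Partek Flow 10.0.21.0801, and deposited CPM values (counts scaled to a fixed library total). Partek E/M can divide reads among genes that share sequence. An offset of 0.0001 CPM on every deposited value was subtracted. Whole reads could not be recovered: 65.2% and 64.4% of values up to 20 reads lay within 0.02 reads of a whole number, so no count model was fitted, and with 1 condition no p-value was computed.

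Log2 ratios between libraries used a pseudocount of 0.1 CPM, which understates differences of low genes, and were centred on the median of genes whose mean reached 1 CPM. Exonic lengths (union of exons), transcripts and coordinates came from GENCODE M21, the authors' build with an earlier release. The genes and the 10 pathway lists (126 genes, 125 listed) were chosen with earlier results of these data known. Named beside the 10 genes were *Cdkn1c*, *Cdk4*, *Cdk6*, *Rb1*, *Mdm2* and *Mki67* and, per list, the highest mean, the largest ratio each way and genes under 1 CPM where 5 or fewer; 1 gene so chosen is not reported here. The computation was tested on simulated data. Software was matplotlib 3.10.9, scipy 1.17.1, pandas 2.3.3 and numpy 2.4.6 under Python 3.11.15.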

Additional observations from a re-analysis of the deposited data

How the results depend on the processing

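For 19 results, 90 values were recomputed with 1 choice changed, of which 76 were classed as the same, 13 as moved and 1 as reversed. For levels and ratios within a library, the same meant a move smaller than the spread between the libraries. Counts were judged by their fold change instead. The list medians are themselves differences between the libraries and have no such spread. The 32 values without 1 library cannot move a mean by more than its SD, so they show no stability. The log2 ratio of D cyclins to CDK inhibitors was -0.30, but 1.40 without division by length and -0.0036 with the longest coding transcript as length. That division gave 4.24 for *Cdkn1a* to *Cdkn1b* and -3.30 for *Cdkn2c* to *Cdkn2a*, which was -1.83 without division by length, each in the direction given above. Without the 10 highest genes in the per-million total, the smaller total made levels 1.58-fold to 1.64-fold higher, namely 282 CPM for *Cdkn1a*, 32.3 for *Cdkn1b*, 62.8 for *Cdkn2a*, 36.7 for *Cdkn2b*, 17.7 for *Cdkn2c*, 8.42 for *Cdkn2d*, 812 for *Ccnd2*, 147 for *Ccnd3* and 60.4 for *Trp53*; *Ccnd1* stayed within its SD, which was large. The order with the longest coding transcript was chosen after seeing the data. The mean of *Ccnd1* rests on libraries that differ, being 54.2 CPM without replicate 2 and 207 CPM without replicate 1. No paired analysis was possible because there is 1 group of libraries. Depth limits *Cdkn2d* most, with 163 and 282 implied reads.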
